A study of Mus musculus with 4 samples.

Results

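Angiogenic and epithelial growth factors are secreted proteins through which macrophages act on blood vessels, stromal cells and epithelium. The 10 genes examined were Vegfa, Vegfb, Pgf, Pdgfa, Pdgfb, Hbegf, Areg, Ereg, Igf1 and Hgf, taken by gene symbol from the 54532 genes of a count table. Each symbol matched a single row. A total of 8 of the 10 reached 10 reads in at least 1 library and were among the 13715 genes compared between libraries, while Pgf and Areg did not.

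The table holds RNA-seq of wild-type mouse macrophages from peritoneal fluid, in 4 libraries of 1 culture condition each. The cultures received either normal medium or 30% 4T1-CM, which is medium conditioned by 4T1 cells, a mouse mammary carcinoma line. Each medium was combined with DMSO, the solvent, or with 10 µM CH223191, an antagonist of the aryl hydrocarbon receptor (AHR), a ligand-activated transcription factor. The study's methods describe peritoneal macrophages of BALB/c mice elicited with thioglycollate, so the cells were recruited by an irritant, and whether a library came from pooled animals was not given in the sources used here. No condition had a second library, so the spread between cultures of a condition was not known and no ratio of 2 libraries could be tested on its own. A fit over all 4 libraries, which takes the inhibitor arms as replicates of each other, is given after the ratios. The 95% intervals (exact, Clopper-Pearson) cover the counting error of the reads alone and compare libraries, not conditions. Values for the 4 libraries are listed with normal medium before 4T1-CM and, within each medium, DMSO before CH223191. The libraries held 15535405 to 17557127 reads assigned to genes. Macrophage markers (Adgre1, Csf1r, Cd68, Itgam, Lyz2, Mertk and Fcgr1) summed to between 14028 and 40034 CPM (reads scaled to library size), most of it Lyz2. In contrast, 7 epithelial markers summed to between 0.69 and 1.48 CPM and 3 T cell markers had no read. Sums for fibroblast, neutrophil and endothelial markers were higher than the epithelial sum and are given after Hgf.

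These ligands fall into families with separate receptors. VEGFA is the principal growth factor of blood vessel endothelium and its gene is a well-known target of the hypoxia-inducible transcription factors, VEGFB and PGF bind the receptor Flt1, and the neuropilins are co-receptors. PDGFA and PDGFB chains pair into dimers that act on fibroblasts and pericytes, HBEGF, AREG and EREG are shed from the cell surface to activate the EGF receptor family, IGF1 acts through Igf1r, and HGF acts through Met.

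The RefSeq promoter table (GRCm38.p6) had an entry for 7 of the 10 genes. The 250 bases before the annotated start site are shown for Vegfa and Hgf, since they were the growth factors with over 100 reads that were higher in 4T1-CM by the largest ratios. The Vegfa window lay at chr17:46032378-46032627 on the minus strand and the Hgf window at chr5:16553245-16553494 on the plus strand. Both are written 5′ to 3′ along the gene, and capitals mark matches to GGGCGG in Vegfa and to GCGTG, read as its reverse complement, in Hgf.
Vegfa: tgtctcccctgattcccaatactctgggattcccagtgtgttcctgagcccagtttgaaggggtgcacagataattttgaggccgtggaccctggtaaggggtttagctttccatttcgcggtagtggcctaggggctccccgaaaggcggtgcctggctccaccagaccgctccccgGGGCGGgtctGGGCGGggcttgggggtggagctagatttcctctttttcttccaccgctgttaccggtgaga
Hgf: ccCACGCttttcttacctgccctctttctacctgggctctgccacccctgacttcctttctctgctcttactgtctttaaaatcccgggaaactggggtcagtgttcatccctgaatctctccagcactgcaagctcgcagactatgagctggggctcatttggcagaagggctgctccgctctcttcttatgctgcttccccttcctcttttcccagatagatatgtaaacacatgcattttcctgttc
Motifs were searched on both strands, each given with the share of 20484 promoter windows of this length that held it. GCGTG is the core bound by AHR with ARNT (31.9%), and ACGTG is a form of the core bound by hypoxia-inducible factors (17.3%). The others were TGANTCA, an AP-1 site (6.4%), TTCNNNGAA, a STAT site (6.77%), and GGGCGG, the GC box (39.5%). The Vegfa window held 2 copies of GGGCGG, with first bases at positions -72 and -62 from the start site, and no match to the other 4 motifs. The Hgf window held 1 copy of GCGTG, with its first base at position -248, and no other match. These matches describe the letters of the windows. Bases outside the 250 were not searched, so a motif further away would be missed, and binding was not measured.

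To compare the growth factors with each other, counts were scaled by library size with TMM factors and divided by gene length, giving CPM per kb. In normal medium with DMSO the order was Vegfb (29.3 CPM per kb), Pdgfb (25.2), Igf1 (19.4), Pdgfa (12.9), Hbegf (7.03), Vegfa (5.11) and Hgf (3.14), with Pgf at 0.086, Areg at 0.052 and Ereg at 0. Vegfa was thus in 6th place in that library, and it was in 5th place with CH223191. In 4T1-CM it came first, at 68.9 CPM per kb with DMSO and 92.0 with CH223191. Vegfa made up 4.99% and 8.17% of the summed level of the 10 genes without 4T1-CM and 44.5% and 54.1% with it. The summed level itself came to 102.3 and 91.2 CPM per kb for the normal medium libraries, and 154.7 and 170.3 for those with 4T1-CM.

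**Figure D1:**
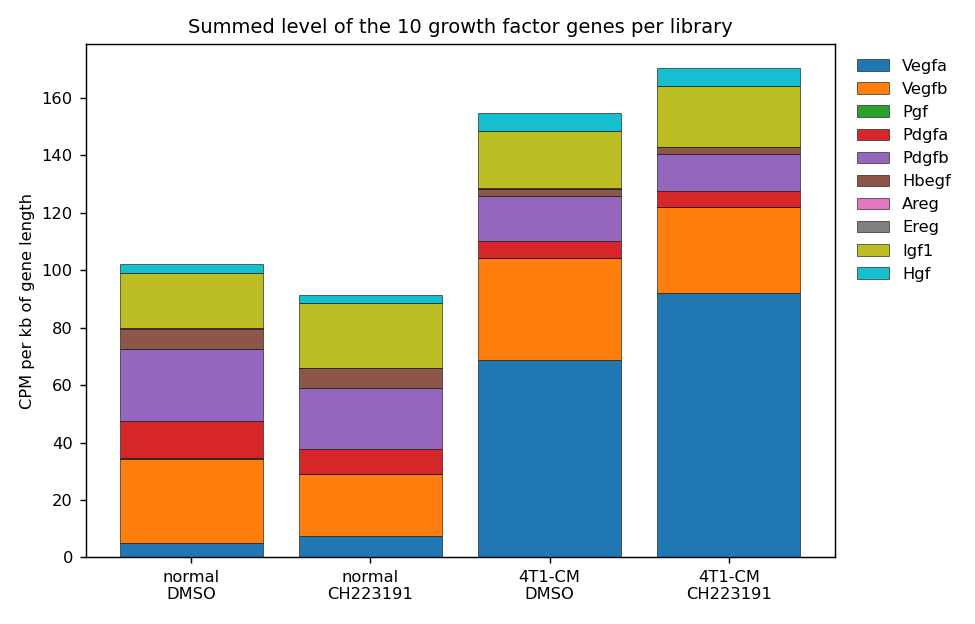
Stacked level of the 10 growth factor genes in each library, in CPM per kb of gene length, with each colour standing for a gene and each bar for 1 library. Vegfa, the lowest segment, grows from 5.11 and 7.45 CPM per kb without 4T1-CM to 68.9 and 92.0 with it.

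The first question was how 4T1-CM changed the growth factor transcripts of the macrophages. With DMSO, 2 of the 8 growth factors compared were at least 2-fold higher in 4T1-CM (Vegfa and Ereg), where 12.2% of all genes compared were, and 2 were at least 2-fold lower (Pdgfa and Hbegf), where 6.11% of all genes were. With CH223191, 3 were at least 2-fold higher (Vegfa, Ereg and Hgf; all genes, 12.0%) and 1 was at least 2-fold lower (Hbegf; all genes, 7.86%). Vegfa and Ereg were at least 2-fold higher in both comparisons, as were 8.18% of all genes, and Hbegf was at least 2-fold lower in both, as were 3.38%. The median log2 ratio over the 8 genes was 0.15 with DMSO and 0.19 with CH223191, beside 0.01 and 0.02 over all genes, and the first pair did not move when Ereg was set to its lower bound. Ereg passed the filter of 10 reads through its 4T1-CM libraries alone, so its call as higher was set by entry and is no separate support. The other growth factors moved in both directions.

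**Figure D2:**
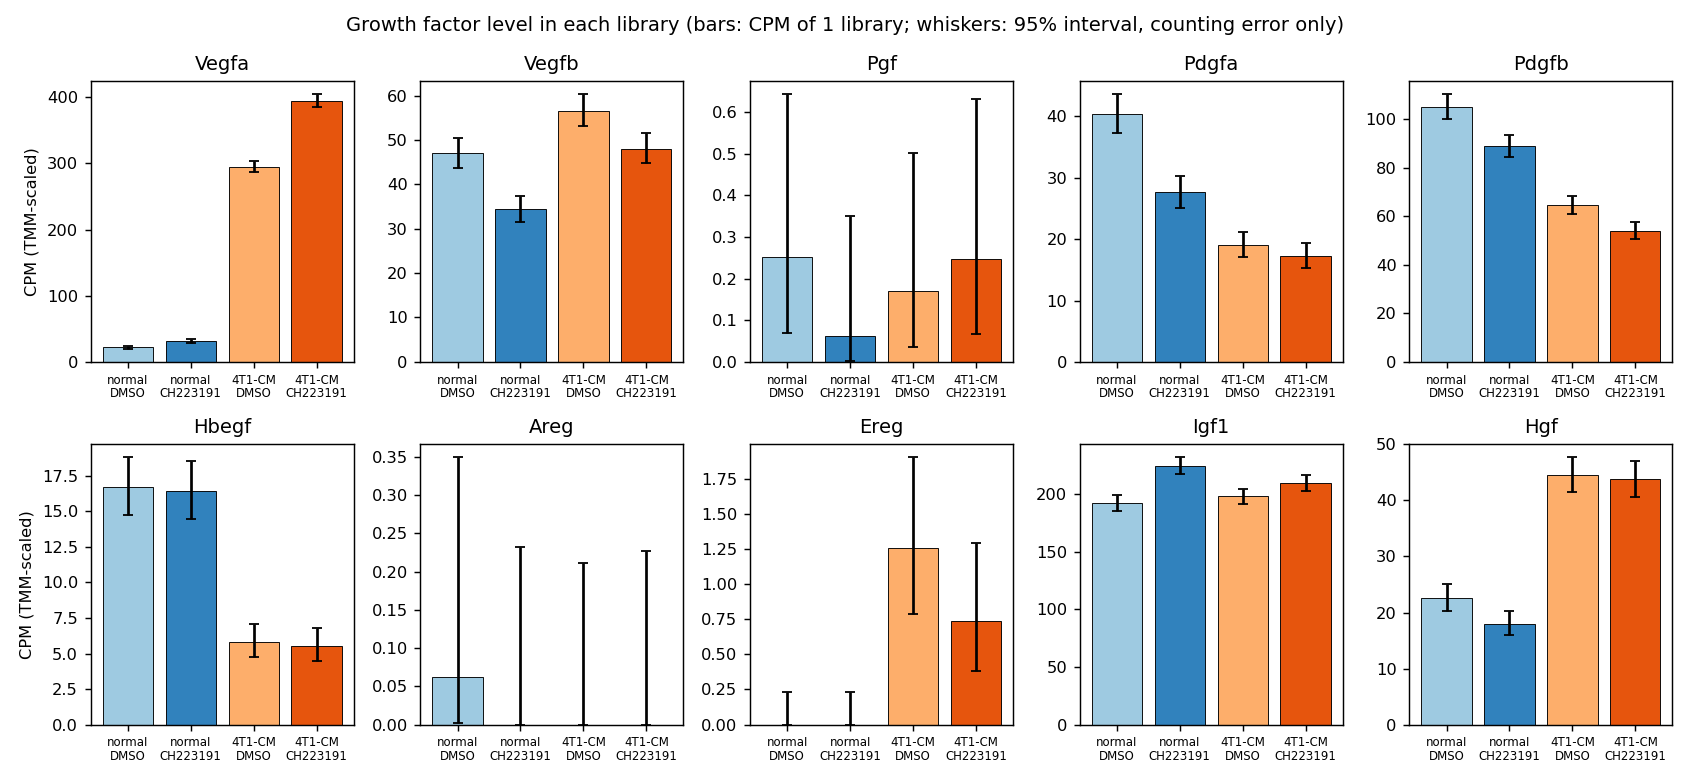
Level of each growth factor gene in the 4 libraries, in TMM-scaled CPM on axes that start at 0 and differ between panels. Bars are single libraries and whiskers are 95% counting intervals, and Vegfa, Ereg and Hgf stand higher in both 4T1-CM libraries while Pdgfa, Pdgfb and Hbegf stand lower.

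Within the VEGF family, Vegfa carried the largest ratio of any growth factor that had reads in every library. The gene (ENSMUSG00000023951, chr17:46016993-46032369, GRCm38 as for all genes below) had 349 and 508 reads in the normal medium libraries and 5165 and 6406 reads in those of 4T1-CM, which corresponds to 21.9, 31.9, 295 and 394 CPM. Both 4T1-CM libraries lay far above both normal medium libraries. The level was 13.5-fold higher in 4T1-CM with DMSO (95% interval 12.1 to 15.1) and 12.3-fold higher with CH223191 (11.3 to 13.5). These ratios were the 214th and the 192nd from the top of the 13715 genes compared. Among all genes compared, the per-length level of Vegfa moved from percentiles 55.5 and 64.1 in the normal medium libraries to 95.6 and 96.8 in those of 4T1-CM.

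Vegfb (ENSMUSG00000024962, chr19:6982473-6987651), a weak angiogenic factor, moved far less. It had 47.0 and 34.4 CPM in the normal medium libraries and 56.6 and 48.0 CPM in those of 4T1-CM. Its log2 ratio of 4T1-CM to normal medium was 0.27 (0.13 to 0.41) with DMSO and 0.48 (0.32 to 0.64) with CH223191, and the lower 4T1-CM library stood only just above the higher normal medium library. Per length, Vegfa was at 0.174 and 0.348 of the Vegfb level in normal medium and at 1.95 and 3.08 times it in 4T1-CM. Pgf (ENSMUSG00000004791, chr12:85166635-85177790), placental growth factor, was near the limit of detection with 4, 1, 3 and 4 reads, and no ratio was formed.

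The PDGF chains were lower in 4T1-CM. Pdgfb (ENSMUSG00000000489, chr15:79995874-80014977) had 104.9 and 88.8 CPM in normal medium and 64.4 and 53.9 CPM in 4T1-CM. The log2 ratio was -0.70 (-0.82 to -0.60) with DMSO and -0.72 (-0.84 to -0.60) with CH223191, so Pdgfb stayed inside the 2-fold limit in both arms although both 4T1-CM libraries were below both normal medium libraries. Pdgfa (ENSMUSG00000025856, chr5:138976014-138997370) had 40.3 and 27.6 CPM in normal medium and 19.0 and 17.2 CPM in 4T1-CM. Its log2 ratio was -1.08 (-1.28 to -0.89) with DMSO and -0.68 (-0.91 to -0.46) with CH223191, and the first interval reaches inside the 2-fold limit. The level of Pdgfb was 1.95 to 2.54 times that of Pdgfa per length in the 4 libraries.

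The Pdgfa values carry an uncertainty of annotation. Exons of the antisense gene 6330403L08Rik overlap those of Pdgfa and share 21.3% of its 50-base words, and the strand setting of the counting was not given in the sources used here. This antisense gene had 234 and 170 reads in the normal medium libraries and 81 and 90 in those of 4T1-CM, and it was likewise lower in both 4T1-CM libraries. Without strand, reads of the shared stretch cannot be told apart.

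Of the EGF family ligands, Hbegf was lower in 4T1-CM and Ereg was detected there alone. Hbegf (ENSMUSG00000024486), a heparin-binding ligand of the EGF receptor that myeloid cells make, had 266 and 261 reads in normal medium and 102 and 90 reads in 4T1-CM, or 16.7 and 16.4 CPM against 5.83 and 5.54 CPM. The libraries of each medium lay close together and the media did not overlap. Hbegf was 2.85-fold lower in 4T1-CM with DMSO (log2 ratio -1.51, -1.86 to -1.18) and 2.95-fold lower with CH223191 (-1.56, -1.93 to -1.22). Ereg (ENSMUSG00000029377, chr5:91074622-91093646), which encodes epiregulin, had no read in either normal medium library and 22 (DMSO) and 12 (CH223191) reads in those of 4T1-CM. That is 1.26 CPM (0.788 to 1.90) and 0.739 CPM (0.382 to 1.29). Against the 3 reads that a count of 0 allows in each normal medium library, the observed Ereg level was at least 6.68-fold higher in 4T1-CM with DMSO and at least 3.92-fold higher with CH223191. The exact 95% intervals, which also take in the counting error of the 22 and 12 reads, begin lower, at 4.99-fold and 2.72-fold. Per length, Ereg in 4T1-CM stayed at 0.304 and 0.179 CPM per kb, below the 2.46 and 2.34 of Hbegf in the same libraries. Areg (ENSMUSG00000029378, chr5:91139599-91148432), which lies downstream of Ereg on the chromosome and encodes amphiregulin, had 1 read in normal medium with DMSO and none in the other libraries, where a count of 0 allows up to 3 reads.

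Igf1 and Hgf parted. Igf1 (ENSMUSG00000020053, chr10:87858265-87937042), a growth factor that tissue macrophages are known to secrete, had 193 and 225 CPM in normal medium and 198 and 210 CPM in 4T1-CM. Its 4T1-CM libraries lay between its normal medium libraries, with a log2 ratio of 0.04 (-0.03 to 0.11) with DMSO and -0.10 (-0.17 to -0.03) with CH223191. Hgf (ENSMUSG00000028864, chr5:16553495-16620152), a mitogen of epithelium made mainly by mesenchymal and myeloid cells, had 22.6 and 18.0 CPM in normal medium and 44.5 and 43.8 CPM in 4T1-CM. Its log2 ratio was 0.98 (0.80 to 1.16) with DMSO, just inside the 2-fold limit, and 1.28 (1.08 to 1.49) with CH223191. Per length, Igf1 exceeded Hgf 6.19- and 9.06-fold without 4T1-CM and 3.23- and 3.47-fold with it.

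Marker sums of several other cell types also differed between the media, upward for fibroblasts and neutrophils as for Hgf and downward for others. The summed level of 7 fibroblast markers came to 63.0 and 30.2 CPM without 4T1-CM and 150 and 128 CPM with it, and 5 of the 6 that were compared were at least 2-fold higher in 4T1-CM in each arm. The sum of 9 neutrophil markers went from 67.6 and 74.6 CPM to 242 and 181 CPM, with Ly6g, S100a9 and Retnlg at 0 in every library. Of the 4 neutrophil markers compared 2 were higher and 1 lower in each arm, with Mmp8 at 2.20 and 1.32 CPM against 122 and 46.7 CPM and Cxcr2 at 12 and 9 reads against 2 and 0. The sum of 6 endothelial markers went the other way, from 103 and 76.0 CPM to 35.6 and 31.3 CPM, with Tek and Emcn at 0. Vwf made up most of it (96.6 and 71.2 CPM against 28.0 and 25.2 CPM), while Pecam1 and Cdh5 were higher, so that of the 4 compared 2 were higher and 2 lower with DMSO and 2 higher and 1 lower with CH223191. The sum of 7 macrophage markers went from 14028 and 18261 CPM to 37499 and 40034 CPM. Lyz2 made up most of it (11888 and 15185 CPM against 32957 and 35572 CPM), while Mertk moved less (54.0 and 68.1 CPM against 71.7 and 88.9 CPM). Of these 7 markers 4 were at least 2-fold higher with DMSO and 3 with CH223191, and 0 were lower. Among all genes compared, 12.2% were at least 2-fold higher and 6.11% lower with DMSO, and 12.0% and 7.86% with CH223191. The part of these cell types in the growth factor levels was not tested. In bulk RNA fewer cells of a type and less RNA per cell cannot be told apart.

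**Figure D3:**
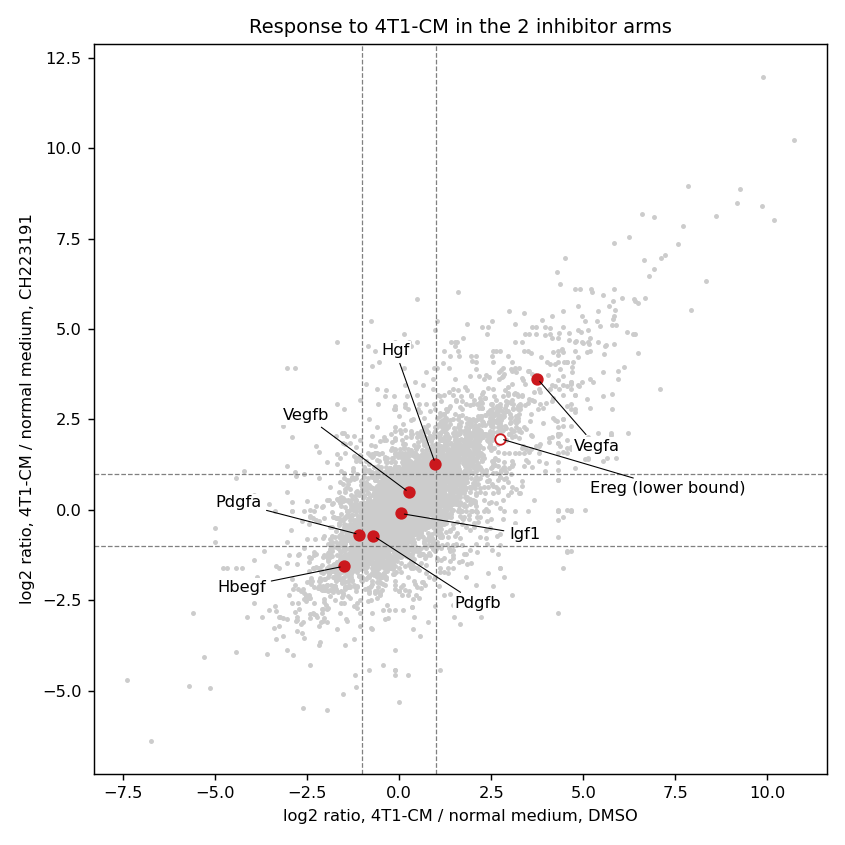
Log2 ratio of 4T1-CM to normal medium with DMSO (x axis) against that with CH223191 (y axis) for the 13715 genes compared (grey) and 8 growth factors (red). Dashed lines mark 2-fold, the open circle sets Ereg at its lower bound, grey points of genes with 0 reads rest on the added prior count, and Vegfa lies at 3.75 and 3.62 while Igf1 lies near 0.

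Over the 8 growth factors, 4 lay above both normal medium libraries in both 4T1-CM libraries (Vegfa, Vegfb, Ereg and Hgf) and 3 lay below (Pdgfa, Pdgfb and Hbegf). The place of Vegfb depends on the scaling, since with total counts its media overlapped (48.3 CPM in the higher normal medium library, 47.6 in the lower 4T1-CM library), which leaves 3 above. Among all genes compared 34.6% lay above and 33.1% below in this sense. A fit of medium and inhibitor as additive terms over all genes, in which the other inhibitor arm stands in for a replicate and 1 residual degree of freedom remains, gave adjusted p-values with edgeR's quasi-likelihood test and Benjamini-Hochberg adjustment. The medium term passed 0.05 for 7 of the 8, of which Vegfa, Vegfb, Ereg and Hgf were higher (16.4% of all genes) and Pdgfa, Pdgfb and Hbegf were lower (16.2% of all genes). The edgeR values were log2 3.69 with adjusted p = 3.0e-08 for Vegfa, -1.54 with 0.00010 for Hbegf and 1.13 with 0.00018 for Hgf. Pdgfb was at -0.71 with adjusted p = 0.0014, Pdgfa at -0.89 with 0.0014 and Vegfb at 0.37 with 0.047 in the same edgeR fit. Igf1 was at -0.03 with adjusted p = 0.88 (edgeR). For Ereg adjusted p was 0.0047 (edgeR), but its ratio rests on the zeros and it passed the filter through 4T1-CM alone. Its place among the higher growth factors was therefore set by entry and adds no support.

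The second question was whether blocking AHR with CH223191 changed the growth factors within a medium. These comparisons use the same libraries as those of the medium. In normal medium none of the growth factors reached a 2-fold difference in either direction, beside 4.84% of all genes higher and 3.31% lower. In 4T1-CM none did either, beside 2.75% higher and 2.66% lower. Ereg had no read in either normal medium library, so its normal medium comparison holds no information and its ratio of 0 there is no result. The growth factors had a median log2 ratio of -0.13 without 4T1-CM and -0.11 with it, beside 0.00 over all genes in each medium. The first median still counts Ereg at 0, which draws it toward 0.

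**Figure D4:**
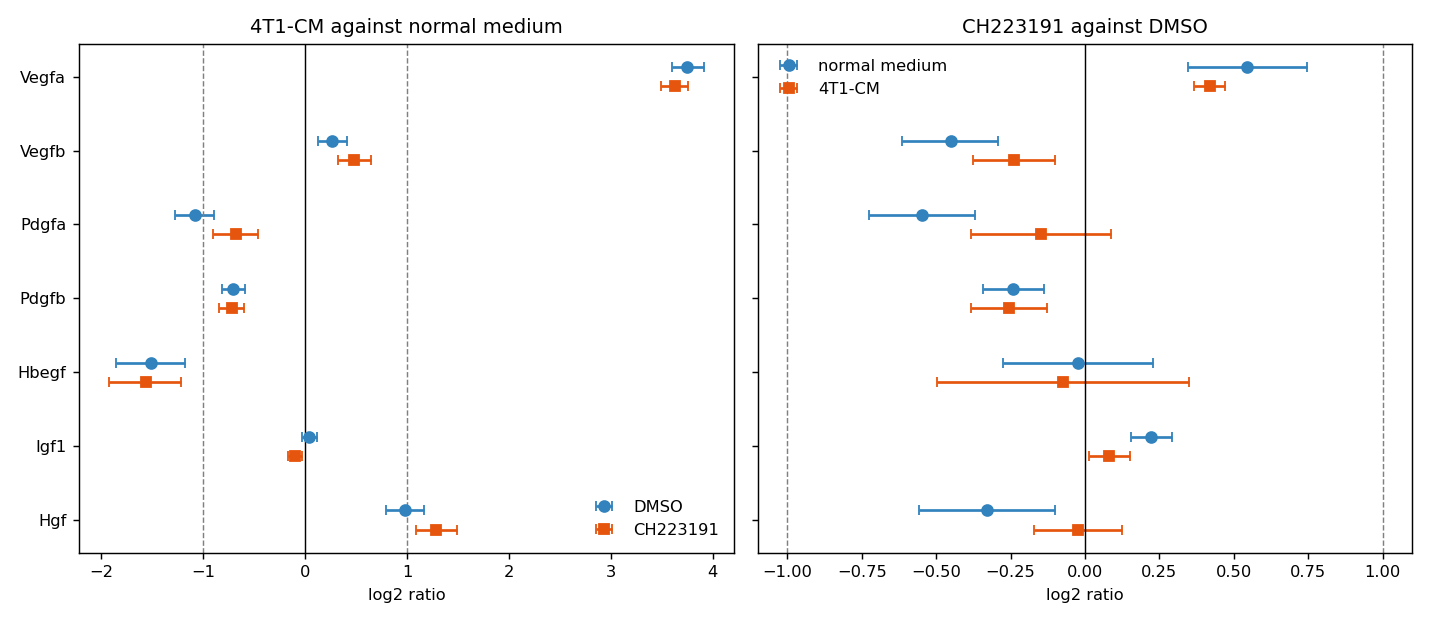
Log2 ratio of each compared growth factor with reads in every library, for 4T1-CM against normal medium (left) and for CH223191 against DMSO (right, on a narrower axis). Points are ratios of 2 libraries, whiskers 95% counting intervals and dashed lines 2-fold, and the right panel holds no growth factor beyond the dashed lines.

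Vegfa was the growth factor that stood higher with CH223191 by the largest ratio in each medium. Its log2 ratio of CH223191 to DMSO came to 0.54 (0.35 to 0.75) without 4T1-CM and 0.42 (0.37 to 0.47) with it, or 1.46-fold and 1.34-fold. Igf1 was also higher, by log2 0.22 (0.15 to 0.29) and 0.08 (0.01 to 0.15). Vegfb was lower in both media, at -0.45 (-0.61 to -0.29) without 4T1-CM and -0.24 (-0.38 to -0.10) with it, as was Pdgfb, at -0.24 and -0.26. Pdgfa was at -0.55 (-0.73 to -0.37) without 4T1-CM and -0.15 (-0.38 to 0.09) with it, and Hgf was at -0.33 (-0.56 to -0.10) and -0.02. Hbegf did not differ beyond counting error in either medium (-0.02 and -0.07), nor did Ereg in 4T1-CM, where its log2 ratio was -0.74 (-1.92 to 0.31). In the additive edgeR fit the CH223191 term passed an adjusted p of 0.05 for 0 of the 8 growth factors, 3 of which had an unadjusted p under 0.05, as did 880 genes in all. The smallest was that of Vegfa, at log2 0.48 with an adjusted p of 0.57 (edgeR, Benjamini-Hochberg). Over all genes 10 passed as higher (0.0729%) and 1 as lower (0.00729%).

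The response to 4T1-CM was then compared between the inhibitor arms as the log2 ratio with CH223191 minus that with DMSO. For Vegfa the difference was -0.13 (-0.33 to 0.08), for Pdgfb -0.01 (-0.18 to 0.15) and for Hbegf -0.05 (-0.55 to 0.45), each within counting error. Among the 7 compared growth factors with reads in every library Pdgfa had the largest difference, 0.40 (0.10 to 0.70), followed by Hgf at 0.30 (0.03 to 0.58), Vegfb at 0.21 (0.00 to 0.43) and Igf1 at -0.14 (-0.24 to -0.04). Ereg, with no read in normal medium, was left out. These 7 lay between the 5th and the 95th percentile of all genes, at -1.17 and 0.99. That range takes in genes with few reads, whose ratios scatter more, so a place inside it says little. With 1 library per condition the spread between cultures that such a difference would have to exceed is not known.

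Transcripts for the receptors of these ligands were counted in the same libraries. Of 16 receptor genes 15 were compared, of which 5 stood higher and 2 lower by 2-fold or more in 4T1-CM with DMSO, and 4 higher and 0 lower with CH223191. Over all genes the shares were 12.2% and 6.11% with DMSO and 12.0% and 7.86% with CH223191. Met, the HGF receptor, had 771 and 673 reads in normal medium and 3457 and 2494 in 4T1-CM, a log2 ratio of 2.03 with DMSO and 1.86 with CH223191. The transcripts of Hgf and of its receptor were therefore both higher in the 4T1-CM libraries. Pdgfrb, a PDGF receptor of mesenchymal cells, had 30 and 14 reads in normal medium and 127 and 109 in 4T1-CM (1.93 and 2.89), beside the fibroblast marker sums given above. Flt4, the receptor of VEGFC and VEGFD, was at 1.77 and 1.42. Egfr had 23, 33, 58 and 56 reads (1.18 with DMSO and 0.72 with CH223191).

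The VEGF receptors with kinase activity were scarce and the neuropilins abundant. Kdr, the main endothelial VEGFA receptor, had 0.986 and 0.557 CPM per kb in normal medium and 1.16 and 0.975 in 4T1-CM, and Flt1 had 0.059 to 0.190 CPM per kb over the 4 libraries. For Flt1 the arms differed, with 41 and 24 reads in normal medium and 14 and 21 in 4T1-CM. Its log2 ratio was -1.65 (-2.68 to -0.78) with DMSO and -0.22 (-1.14 to 0.68) with CH223191. Nrp1 was at 26.0 and 22.2 CPM per kb in normal medium and 11.2 and 11.9 in 4T1-CM, a log2 ratio of -1.22 with DMSO and -0.90 with CH223191. Nrp2 hardly moved, at 37.8 to 43.2 CPM per kb, and per length it exceeded Nrp1 1.48- and 1.70-fold without 4T1-CM and 3.87- and 3.39-fold with it. Pdgfra was at -0.27 and 0.48, Erbb3, a neuregulin receptor, at 0.74 and 0.28, and Mst1r, a relative of Met, at -0.53 and -0.83, none beyond 2-fold. For Igf1, the receptor Igf1r was at -0.19 and 0.58 and Igf2r, which clears IGF2, at -0.35 and -0.26.

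**Figure D5:**
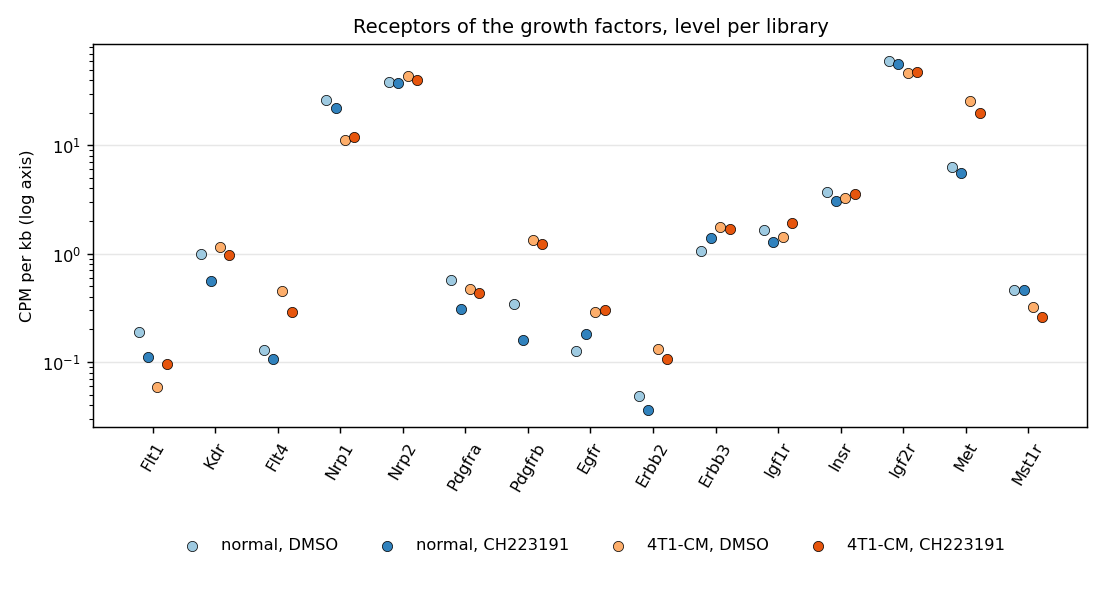
Level of the 15 receptor genes compared, in CPM per kb of gene length on a log axis, with a point for each library. Met, Pdgfrb and Flt4 stand higher in both 4T1-CM libraries, Nrp1 stands lower, and Igf2r and Nrp2 are the most abundant in every library.

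Genes that release or activate the ligands were read as a further list. Of 16 listed, 15 were compared, with 1 at least 2-fold higher and 1 lower in 4T1-CM with DMSO and 4 higher and 1 lower with CH223191. Among all genes compared, 12.2% were higher and 6.11% lower with DMSO, and 12.0% and 7.86% with CH223191. Adam17, the main sheddase of EGF family ligands, was at 0.77 with DMSO and 0.96 with CH223191, Adam8 at 0.74 and 0.58, and Adam15 at -0.36 and -0.28. Plau, urokinase, a protease that can activate HGF and free growth factors from the matrix, was lower at -1.29 and -1.45. Timp3, an inhibitor of Adam17, had 19 and 12 reads in normal medium and 77 and 28 in 4T1-CM. Only 2 of 8 IGF binding proteins were compared, of which Igfbp7 was higher (2.13 and 2.59) and Igfbp4 lay inside the 2-fold limit (0.65 and 0.95).

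Other ligands of the same families were mostly near the limit of detection, and 4 of 13 were compared. Nrg1, neuregulin, had 1 and 1 reads in normal medium and 16 and 13 in 4T1-CM, Pdgfc had 33 and 21 against 49 and 41, and Nrg4 had 12 and 11 against 22 and 17. Egf had 3 to 11 reads in each library. Of 10 other angiogenic factors 7 were compared. In 4T1-CM 4 were at least 2-fold higher and 1 lower with DMSO, and 3 higher and 1 lower with CH223191. Among all genes compared, 12.2% were higher and 6.11% lower with DMSO, and 12.0% and 7.86% with CH223191. Thbs1, thrombospondin, an inhibitor of angiogenesis, had 615 and 590 reads in normal medium and 16561 and 15619 in 4T1-CM (log2 ratio 4.61 and 4.69), so its ratio exceeded that of the angiogenic Vegfa. Thbs2, a second thrombospondin, had 3 and 22 reads against 67 and 92, and Fgf2 had 18 and 13 reads against 42 and 55. Angptl4 stood apart in normal medium with CH223191, where it had 111 reads beside 22, 19 and 18 in the other libraries.

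Since Vegfa is a textbook target of hypoxia-inducible factors, 9 other genes induced by hypoxia were read alongside it. All 9 were compared, and 5 were at least 2-fold higher in 4T1-CM with DMSO and 6 with CH223191, with none lower, a median log2 ratio of 1.02 and 1.15 beside 0.01 and 0.02 over all genes, of which 12.2% and 12.0% were at least 2-fold higher. Egln3, an oxygen-sensing prolyl hydroxylase, was at 3.69 and 3.74, close to the ratios of Vegfa. Bnip3 was at 2.70 and 2.63, the glucose transporter Slc2a1 at 1.33 and 1.28, and Ankrd37 at 1.30 and 1.19. The glycolytic genes Pgk1 (1.02 and 1.08) and Ldha (0.998 and 0.80) stood near the 2-fold limit and Ndrg1 inside it (0.56 and 0.72). The remaining genes of the list, named after their values were seen, were Pdk1 (0.60 and 1.15) and Car9 (-0.10 and 0.13), and Car9 did not differ beyond counting error in either arm. With CH223191 against DMSO none of the 9 reached 2-fold in either medium. This list was chosen with earlier results of these data known. The oxygen level of the cultures was not given in the sources used here, and a part of hypoxia-inducible factors in the Vegfa level was not tested.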

How the data were processed

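RNA-seq of 4 libraries, 1 per condition, was read from a deposited table of counts per gene, whole reads that the authors had assigned to genes and had not normalized. Libraries were made with the NEBNext Ultra RNA kit from total RNA. The submitters' processing notes name HISAT2 (2.0.5) and DESeq2, with the counter and its strand setting not given in the sources used here. Coordinates in the table equal those of GENCODE M21 (GRCm38) for 53499 of 54409 shared genes.

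Counts were scaled by TMM (edgeR 4.0.16, R 4.3.3), with 10 reads in at least 1 library required. Log2 ratios had a prior count of 0.5 and exact 95% Clopper-Pearson intervals of the read split, which cover counting error only. A difference was counted from 2-fold. An additive fit (medium and inhibitor) used edgeR's quasi-likelihood test with Benjamini-Hochberg adjustment. The scripts were tested on simulated data. A count of 0 was bounded at 3 reads, or 0.171 to 0.189 CPM. Alternatives were DESeq2 (1.42.0) size factors, total counts, other filters, a prior of 5, protein-coding genes alone, folds of 1.5 and 3, and the additive fit.

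The growth factors and the lists of receptors, other ligands, shedding and activation genes, IGF binding proteins, angiogenic factors, hypoxia-induced genes and cell type markers were chosen with earlier results of these data known. The text names every growth factor, receptors of at least 1 CPM, and of each other list the 4 genes with the most reads and those changed at least 2-fold the same way in both 4T1-CM or both CH223191 comparisons. Car9, Pdk1 and Spint1 were named after their values were seen. Overlapping genes and marker sums are given beside the results they touch. Columns of the table other than counts and annotation were not used.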

Additional observations from a re-analysis of the deposited data

Results flagged for a closer look

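In 7 genes of the pathway lists a log2 ratio had opposite signs in the 2 settings compared, with both 95% counting intervals on their own side of 0. None of the 10 growth factors met this, although Igf1 was at 0.04 with DMSO, with an interval that holds 0, and -0.10 with CH223191 for 4T1-CM against normal medium. These differences were not tested, each ratio comes from 2 libraries, and several are small. With CH223191 against DMSO, Nrp1 was at -0.23 in normal medium and 0.093 in 4T1-CM. Igf1r was at -0.37 in normal medium and 0.40 in 4T1-CM for the same contrast. Spint1, an inhibitor of HGF activation, was at -1.18 and 1.07, with 9 to 24 reads in each library. Angpt2, a vessel-destabilizing ligand of Tek, was at 0.45 in normal medium and -0.57 in 4T1-CM. Pdk1 was at -0.33 and 0.22, and Ldha at 0.15 and -0.041. With 4T1-CM against normal medium, Insr, the insulin receptor, was at -0.17 with DMSO and 0.23 with CH223191.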

How the results depend on the processing

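The labels give no replicate numbers by which libraries could be paired, and the additive edgeR fit, which compares the media within each inhibitor arm, is the blocked analysis that 4 libraries allow. With 1 library per condition none was left out. Size factors of DESeq2, total counts, protein-coding genes alone, a prior count of 5 and a minimum of 10 reads in every library kept every count of growth factors within 1.5 times its value. The last of these leaves out Ereg, and there Hgf with DMSO came to 1.003 on the log2 scale and crossed the 2-fold limit. With no filter on low counts, 2 growth factors were at least 2-fold lower with CH223191 in normal medium, beside 0 with the filter, and the added genes have 0 to 4 reads. At 1.5-fold, 3 were lower in 4T1-CM with CH223191. In 4T1-CM, 1 was lower with CH223191, which was Ereg, with 12 against 22 reads and an interval that holds 0. At 3-fold, 0 were lower in 4T1-CM in either arm, while Vegfa and Ereg stayed higher. The shares of all genes at 1.5-fold, at 3-fold and without the filter were not taken, so these counts have no background beside them. By adjusted p in the additive edgeR fit, 4 were higher in 4T1-CM, beside 2 by fold with DMSO, and 3 were lower, beside 1 by fold with CH223191. No growth factor ratio that reached 2-fold changed sign under these settings. Of the small values, Igf1 in 4T1-CM with DMSO went from 0.041 to -0.00058 with total counts and to -0.030 in the additive fit, and with total counts the difference between the arms went from -0.014 to 0.035 for Pdgfb and from -0.049 to 0.00059 for Hbegf. Depth limits Pgf, Areg and Ereg, and the lack of a second library per condition limits all ratios.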

Other observations

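For the growth factors that were higher in both 4T1-CM comparisons, the genes of at least 10 CPM on average with the most similar pattern were sought by Euclidean distance over the 3 log2 ratios to normal medium with DMSO. For Vegfa these were Pilra (0.60), Ier3 (0.63) and Egln3 (0.64). For Ereg they were Aoah (0.41), Tlr2 (0.60) and Slc36a2 (0.67), and the Ereg pattern rests on the prior count added to its 0 reads in normal medium. The likeness is over 4 libraries and is a description.

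Gene models that overlap the other growth factors had few reads. Gm43489, on the same strand as Hgf and sharing 6.02% of its 50-base words, had 0 to 10 reads in each library, and Gm19610, antisense to Ereg, had none.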
